A study of Mus musculus with 9 samples.

Results

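The angiopoietin, Tie and tip-cell genes described here are 9 genes of growing and remodelling blood vessels. They are the angiopoietin ligand genes Angpt1 and Angpt2, the receptor genes Tek (Tie2) and Tie1, the tip-cell genes Esm1, Apln and Dll4, the apelin receptor gene Aplnr, and the angiopoietin-like gene Angptl4. They were chosen by name, and every probe whose RefSeq accession maps to one of them was taken. This gave 9 of 55681 non-control probes, 1 per gene, for 9 of 20145 genes with a RefSeq symbol. On all 9 arrays each of the 9 probes was well above background, so none was lost to the filter on dim probes.

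The series asks how VEGF, a growth factor of blood vessels, alters gene expression after focal ischaemia of the brain. Brain RNA of adult male C57BL/6 mice aged 50 to 53 days was hybridised to 9 1-colour arrays, 3 per group. Sham mice had sham surgery. In the MCAO group the middle cerebral artery was occluded for 90 min, and 1 µl of phosphate-buffered saline was injected into the right lateral ventricle 3 h after reperfusion. The VEGF group underwent that same occlusion, and the injected 1 µl carried recombinant human VEGF-A165 (10 µg/ml). Tissue was collected 24 h after reperfusion, 21 h after the injection in the 2 ischaemic groups. The labels give no injection for sham mice and do not name the part of the brain used. Each array holds a different mouse.

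Angiopoietin 1, secreted mainly by pericytes and smooth muscle cells, activates the receptor Tie2 on endothelial cells and keeps vessels quiescent. Angiopoietin 2, made by endothelial cells themselves, binds the same receptor, often without activating it, and loosens the vessel wall so that it responds to VEGF. In a sprouting vessel the leading endothelial cell, the tip cell, makes Dll4, Esm1 and apelin, and Dll4 acts through Notch on its neighbours to hold back further tip cells.

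Levels are given as log2 of the processed fluorescence signal minus the array's 75th percentile, and shifts as that value minus the mean of the 3 sham arrays. A difference between groups is a log2 difference with the standard error of the limma fit and n = 3 arrays per group, and "rose" or "fell" is used of a gene only where the adjusted p was under 0.05. The 75th percentile signal was 1420 to 1530 on the sham arrays. On MCAO array 1 and VEGF array 1 it was 923 and 848, and on the other ischaemic arrays 1540 to 2070. The share of non-control spots well above background was 73.0% (VEGF array 1) to 81.8%. MCAO array 1 and VEGF array 1 stood apart: they scored 130 and 141 on the first principal component, where the remaining 4 ischaemic arrays scored -8.17 to 15.9. All 13 neuron markers measured were well above background on every array, which bears out the brain label, but their median shift was -2.43 and -2.46 on these 2 arrays and -0.84 to -0.39 on the remaining ischaemic ones. All 16 endothelial markers were well above background on every array. Their median shift was 2.12 (MCAO array 1) and 2.56 (VEGF array 1), and 0.47 to 0.95 on the remaining ischaemic arrays. In these bulk samples a change in the number of cells of a type and a change in RNA per cell cannot be told apart. The sham arrays shared 1 slide and the ischaemic arrays a second one, so slide, ventricular injection and ischaemia cannot be told apart in comparisons with sham. Differences of the 9 genes from sham are given below with and without that pair of arrays.

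Upstream sequence is shown for 3 of the genes so that Esm1 and Dll4, which had the largest mean differences from sham among the tip-cell genes without passing the test, can be set beside the receptor gene Tie1. RefSeq promoter sequences were matched by symbol for 5 of the 9 genes (Tek, Tie1, Esm1, Apln and Dll4). The 250 bases before the start site are printed from RefSeq in build GRCm38.p6, 5′ to 3′ on the gene's strand, with matches to the searched motifs in capitals. They lie at chr13:113209409-113209658 on the plus strand for Esm1, chr2:119325534-119325783 on the plus strand for Dll4 and chr4:118489850-118490099 on the minus strand for Tie1.
Esm1: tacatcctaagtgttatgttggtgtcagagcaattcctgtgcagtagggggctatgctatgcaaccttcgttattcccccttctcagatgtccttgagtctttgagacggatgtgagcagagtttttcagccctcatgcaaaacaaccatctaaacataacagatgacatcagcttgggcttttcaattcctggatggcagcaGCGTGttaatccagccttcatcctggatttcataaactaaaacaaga
Dll4: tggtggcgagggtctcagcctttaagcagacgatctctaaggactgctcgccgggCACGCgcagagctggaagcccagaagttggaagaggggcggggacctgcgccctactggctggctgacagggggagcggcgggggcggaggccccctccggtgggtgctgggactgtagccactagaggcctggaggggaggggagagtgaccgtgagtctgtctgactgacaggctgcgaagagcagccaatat
Tie1: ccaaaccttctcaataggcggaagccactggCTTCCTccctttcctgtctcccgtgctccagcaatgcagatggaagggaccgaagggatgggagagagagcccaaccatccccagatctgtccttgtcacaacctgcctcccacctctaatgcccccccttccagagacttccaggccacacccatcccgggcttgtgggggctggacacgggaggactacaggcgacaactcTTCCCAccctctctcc

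Motifs were searched on both strands, and no base fell in 2 of them. The core GCGTG, one form of the hypoxia response element, was found in 2 of the 5 windows, in Esm1 at 47 to 43 bases before the start and in Dll4 on the other strand at 195 to 191 bases before it. It was present in 28.2% of all 32851 RefSeq windows of this length. The other form of that core, ACGTG, was in none of the 5 windows and in 16.6% of all windows. The ETS motif AGGAAG was in Tie1 and Apln and in 29.5% of all windows. The Rbpj motif TGGGAA, the site of Notch signalling, was in Tie1 and in 21.6% of all windows. The AP-1 motif TGANTCA was in none of the 5 and in 6.7% of all windows. A match describes letters in this window and is neither a bound site nor a cause. The Tek window, which held none of the 5 motifs, belongs to another start site: 203 of its 250 bases lie within the gene as RefSeq annotates it, where the windows of the other 4 genes lie wholly before theirs.

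The first question was what ischaemia with vehicle did to these genes. In MCAO against sham, Angpt2 rose 11.8-fold and Angptl4, which encodes an inhibitor of lipoprotein lipase, rose 8.81-fold. No gene of the 9 fell. Esm1 and Dll4 lay above sham on every MCAO array and Angpt1 below it on every array, but they did not pass. The test uses a spread shared by all 3 groups, and the SD of Esm1 was 1.77 in MCAO and 2.89 in VEGF. In all, 2 of 9 genes were called (limma, Benjamini-Hochberg), where 2.81% of all 30837 genes tested were called and 2.28% were called higher. Without overlap between groups, 5 of the 9 were higher and 1 lower, where 40.3% of all genes did not overlap, 19.6% higher and 20.7% lower. The median difference of the 9 genes was 1.54, against -0.04 for all genes tested.

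**Figure D1:**
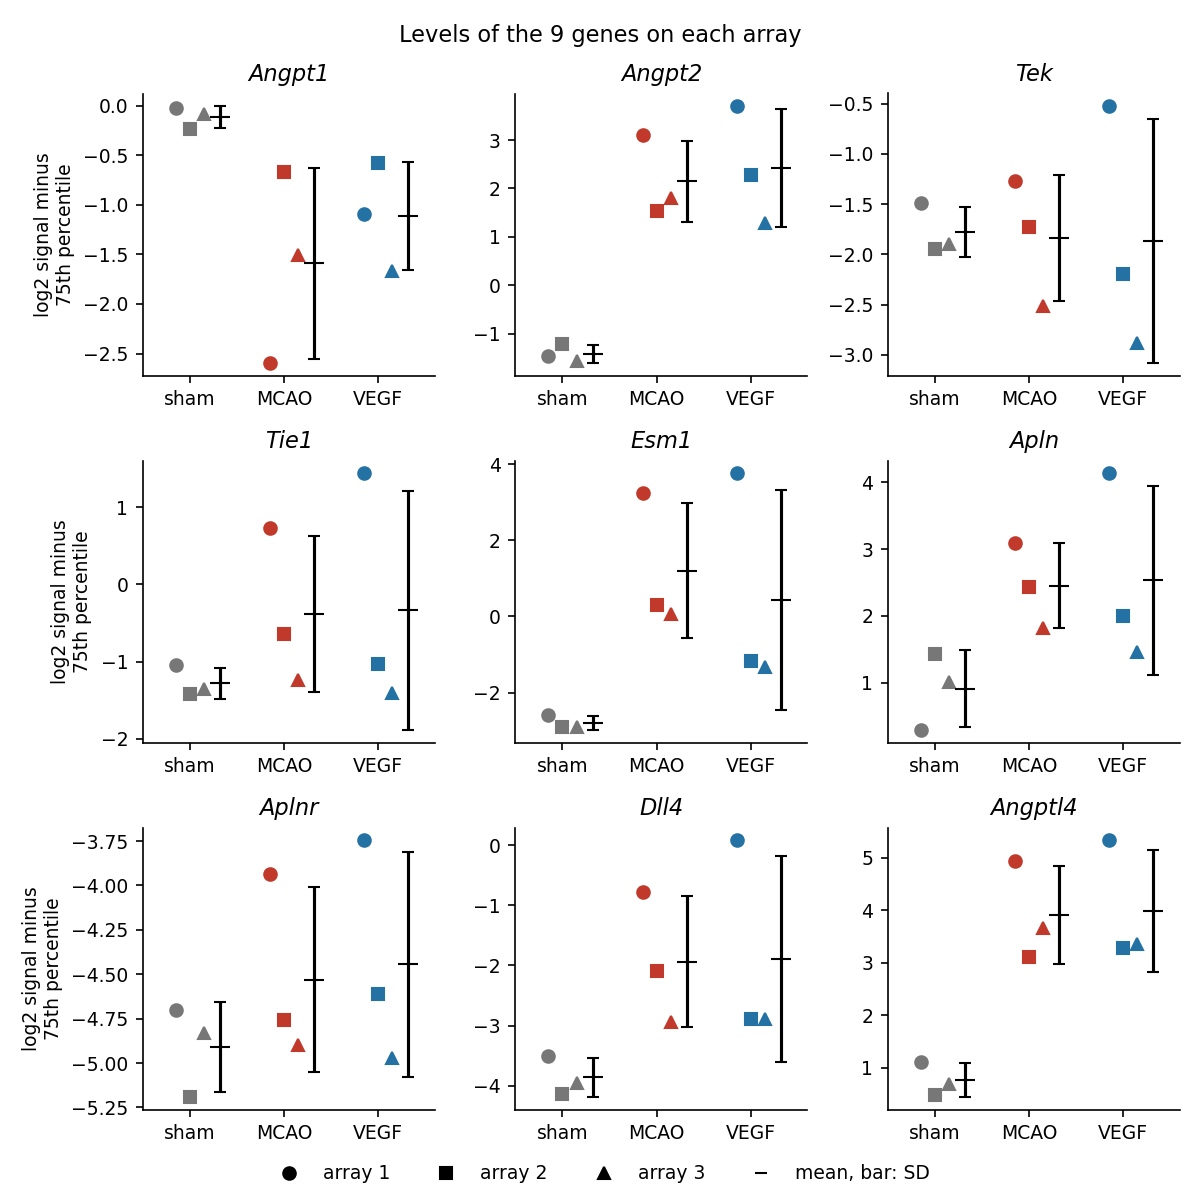
Level of each of the 9 genes on each array, as log2 signal minus the array's 75th percentile (vertical axes, which differ between panels), for sham (grey), MCAO (red) and VEGF (blue); symbols give the array number, and the bar beside each group its mean ± SD (n = 3). Angpt2 lay between -1.57 and -1.21 on sham arrays and between 1.28 and 3.70 on the 6 ischaemic arrays, and array 1 was the highest of its ischaemic group in every panel except Angpt1.

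Among the ligands, Angpt2 was at -1.46, -1.21 and -1.57 in sham and at 3.10, 1.53 and 1.81 in MCAO. All 3 MCAO arrays lay above all 3 sham arrays. The group means were -1.41 ± 0.19 (SD, n = 3) in sham and 2.15 ± 0.84 (SD, n = 3) in MCAO, a difference of 3.56 ± 0.61 (limma adjusted p = 0.0211). Angpt1, whose protein acts on the same receptor, was at -0.02, -0.23 and -0.09 in sham and at -2.59, -0.67 and -1.51 in MCAO. All 3 MCAO arrays lay below all sham arrays, and MCAO array 1 was the lowest of the 9. The difference was -1.48 ± 0.47 (limma adjusted p = 0.131), so this gene did not pass.

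Because the 2 ligands share a receptor, the shift of Angpt2 minus the shift of Angpt1 was formed on each array. It was -0.14, 0.32 and -0.18 in sham, 7.00, 3.50 and 4.61 in MCAO, and 6.08, 4.15 and 4.25 in VEGF. Every ischaemic array lay above every sham array. The mean was 5.04 ± 1.78 (SD, n = 3) in MCAO and 4.83 ± 1.09 (SD, n = 3) in VEGF. Each comparison with sham gave an exact two-sided permutation p of 0.1, the smallest that 3 arrays against 3 allow. Every ischaemic array lay above all sham arrays for Angpt2 and below them for Angpt1. That p was thus fixed by the separate values and adds no support to them. VEGF minus MCAO was -0.21 (exact two-sided permutation p = 0.8).

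The receptor genes did not pass. Tek, the angiopoietin receptor of endothelial cells, shifted by 0.51, 0.05 and -0.73 on the MCAO arrays, with sham arrays between -0.17 and 0.29. The groups overlapped, and the difference was -0.06 ± 0.57 (limma adjusted p = 0.959), with a 95% interval wide enough to hold a change of more than 1 log2 unit either way. Its sign turned with age as a covariate (0.075) and in some fits without 1 array. Tie1, the co-receptor without a known strong ligand of its own, shifted by 2.01, 0.63 and 0.04. MCAO array 3 lay within the sham arrays, and the difference was 0.89 ± 0.75 (limma adjusted p = 0.502).

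Esm1, the gene of the endothelial proteoglycan endocan, shifted by 6.04, 3.10 and 2.85 on the MCAO arrays, with sham arrays between -0.11 and 0.21. On the signal scale this was 7530, 2180 and 1780 against 208, 180 and 179 in sham. No MCAO array came near sham, but array 1 was far above the other 2 of its group. The difference of 4.0 ± 1.35 was the largest of the 9 in this comparison and did not pass (limma adjusted p = 0.152).

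Dll4, the Notch ligand of tip cells, shifted by 3.08, 1.77 and 0.92 on the MCAO arrays, with sham arrays between -0.27 and 0.35. The groups did not overlap, and the difference was 1.93 ± 0.83 (limma adjusted p = 0.227). Apln, the gene of the peptide apelin, shifted by 2.19, 1.53 and 0.91, with a wider sham range of -0.62 to 0.52. It did not overlap either, and the difference was 1.54 ± 0.67 (limma adjusted p = 0.232). Aplnr, the apelin receptor gene, shifted by 0.97, 0.15 and 0.01 within or above a sham range of -0.28 to 0.21. Its difference was 0.38 ± 0.37 (limma adjusted p = 0.566), and it turned to -0.45 when arrays were scaled to endothelial markers.

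Angptl4 is induced by fasting, by PPAR receptors and by low oxygen, and its protein does not signal through the Tie receptors. It was at 1.12, 0.49 and 0.70 in sham and at 4.95, 3.12 and 3.66 in MCAO. Every MCAO array lay more than 2 log2 units above the sham mean. The difference was 3.14 ± 0.63 (limma adjusted p = 0.0374).

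These calls rest on a small number of arrays. Neither Angpt2 nor Angptl4 was called in MCAO against sham when any one of sham arrays 1, 2 or 3 or MCAO array 3 was left out (0 of 9 genes). Calls over all genes were then 191, 252, 248 and 386, of 30913 to 31095 tested, against 868 of 30837 with all arrays. Angpt2 alone was called without MCAO array 1 (1169 of 31205 genes called) or without MCAO array 2 (534 of 31009). VEGF array 1 is in neither group of this comparison and enters it through the shared estimate of spread and the set of genes tested. Without VEGF array 1, 3 of the 9 were called, with Esm1 added (limma adjusted p = 0.0224). In that fit 2534 of 31170 genes were called.

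**Figure D2:**
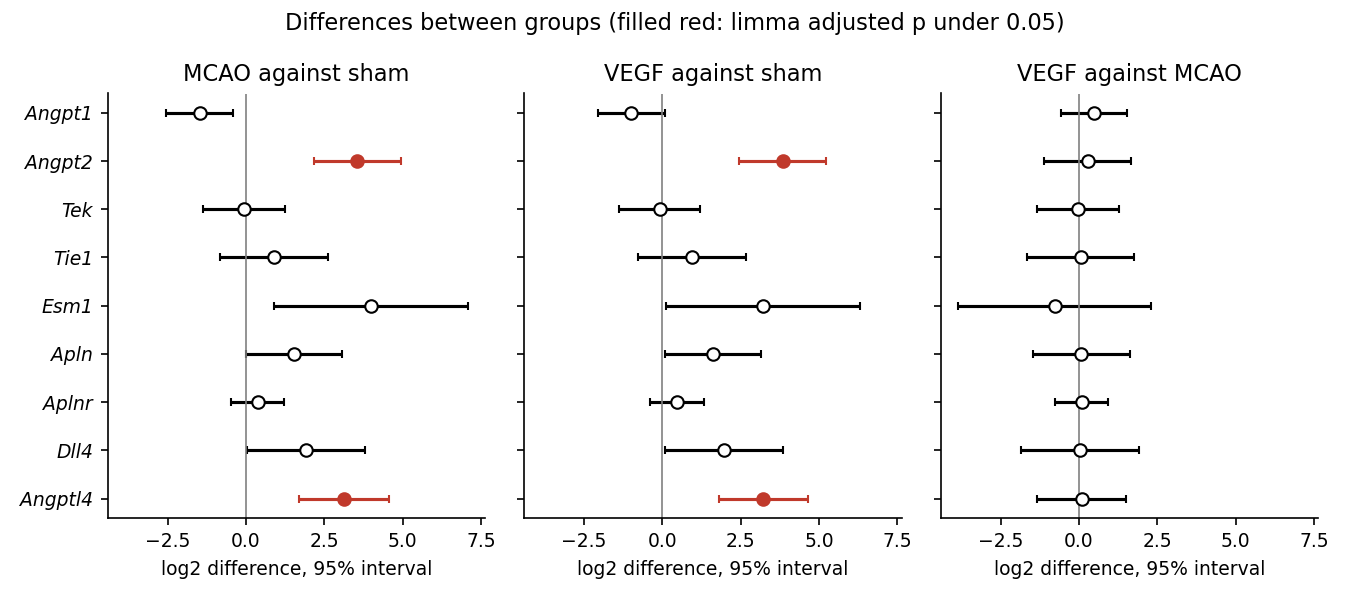
Log2 differences of the 9 genes in the 3 comparisons (horizontal axes), with 95% intervals of the limma fit; filled red points have adjusted p under 0.05. Angpt2 and Angptl4 are filled in both comparisons with sham, at 3.56 and 3.14 for MCAO and 3.83 and 3.22 for VEGF, and no point is filled in VEGF against MCAO.

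The second comparison set VEGF-treated ischaemic mice against sham and shares the sham arrays with the first, so the 2 sets of values are not independent. Angpt2 rose 14.3-fold and Angptl4 9.32-fold. Again 2 of 9 genes were called, where 2.43% of all genes tested were called and 2.07% were called higher. Without overlap, 5 were higher and 1 lower, where 42.1% of all genes did not overlap, 18.2% higher and 23.9% lower. The median difference of the 9 genes was 1.62, against -0.12 for all genes.

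Angpt2 was at 3.70, 2.28 and 1.28 on the VEGF arrays, all above the sham arrays, and differed by 3.83 ± 0.61 (limma adjusted p = 0.0176). Angptl4 was at 5.34, 3.28 and 3.35, also all above sham, and differed by 3.22 ± 0.63 (limma adjusted p = 0.0371). Angpt1 shifted by -0.97, -0.46 and -1.55, all below sham, and its difference of -0.99 ± 0.47 did not pass (limma adjusted p = 0.234).

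Esm1 split the VEGF group most widely, with shifts of 6.55, 1.63 and 1.47. All 3 arrays were above sham, and VEGF array 1 was well apart from the other 2. The difference was 3.22 ± 1.35 (limma adjusted p = 0.201). Dll4 showed the same split, with 3.94 on VEGF array 1 and 0.98 on each of the others (difference 1.97 ± 0.83, limma adjusted p = 0.202). Apln shifted by 3.23, 1.08 and 0.56, and its lowest VEGF array, at a level of 1.46, was just above the highest sham array at 1.43. Its difference was 1.62 ± 0.67 (limma adjusted p = 0.198).

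The receptor genes overlapped with sham again. Tie1 shifted by 2.72, 0.25 and -0.13 (difference 0.94 ± 0.75, limma adjusted p = 0.442). Tek shifted by 1.25, -0.42 and -1.11, with arrays on both sides of sham (difference -0.09 ± 0.57, limma adjusted p = 0.931), and its sign turned in some fits without 1 array. Aplnr shifted by 1.16, 0.29 and -0.07 (difference 0.46 ± 0.37, limma adjusted p = 0.443), which turned to -0.31 with arrays scaled to endothelial markers. Of the calls in this comparison, none of the 9 genes passed without sham array 1, 2 or 3, and only Angpt2 passed without MCAO array 3, VEGF array 1 or VEGF array 3. Calls over all genes were 157, 204 and 171 without a sham array and 525, 558 and 658 in the latter fits, of 30893 to 31170 tested. With all arrays they were 748 of 30837.

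The third comparison asked what VEGF changed after occlusion, within 1 slide. None of the 9 genes passed (limma), none had an unadjusted p under 0.05, and in none did the groups separate. Of all genes tested, 0.00649% were called, 2.78% had an unadjusted p under 0.05 and 5.8% did not overlap. The median difference of the 9 was 0.08, against -0.02 for all genes. Esm1 had the largest difference, -0.78 ± 1.35, with a 95% interval from -3.87 to 2.31, followed by Angpt1 at 0.48 ± 0.47 and Angpt2 at 0.27 ± 0.61. The other 6 lay between -0.03 (Tek) and 0.09 (Aplnr). Each of these 9 signs turned under at least 1 alternative fit, scaling or set of arrays, so no direction is given for any of them. These intervals do not show that the groups were alike. The fit left out the pairing of same-numbered MCAO and VEGF arrays described below, so variation shared by a pair counts as spread in them. By array number, Esm1 shifted by 6.04, 3.10 and 2.85 in MCAO and by 6.55, 1.63 and 1.47 in VEGF. With a replicate block, none of the 9 genes was called either. In order of group mean, sham was lowest and VEGF highest for Angpt2, Tie1, Apln, Aplnr, Dll4 and Angptl4, but the neighbours MCAO and VEGF did not differ beyond their spread for any gene.

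MCAO array 1 and VEGF array 1 were the highest 2 of the 9 arrays for 8 of the 9 genes, all but Angpt1. The same held for 11 of 16 endothelial markers and for 25.5% of all genes tested. These ranks are of levels relative to the 75th percentile, which was lowest on this pair. In unscaled signal the pair stayed highest for Tie1, Esm1, Dll4 and Angptl4, but not for Angpt2, Tek, Apln and Aplnr. For Angpt2, MCAO array 1 had 6850 and VEGF array 2 had 7530. For Aplnr, MCAO array 1 and VEGF array 1 had 52.1 and 53.9, and MCAO array 2 had 65.4. On these 2 arrays the shift of Tie1, at 2.01 and 2.72, was close to the endothelial median of 2.12 and 2.56, while those of Angpt2 and Esm1 were about 2 to 4 log2 units above it. Summed over the 16 endothelial markers, the signal relative to the 75th percentile ranged over 59.2 to 72.6 in sham, 103 to 248 in MCAO and 86.9 to 341 in VEGF. Pericyte and smooth muscle markers, of cells that make Angpt1, had median shifts from -0.40 to 1.01 over the ischaemic arrays, and 0 of 12 were called in either comparison with sham. Without the pair of arrays, 3 were called higher and 2 lower in MCAO, and 2 higher and 2 lower in VEGF. In that fit 22% and 19% of all genes were called, 9.61% and 8.44% higher. Red blood cell markers were higher on every ischaemic array as well, with median shifts of 0.65 to 1.51 over 4 measured markers, against -0.48 to 0.49 on the sham arrays. All 4 lay above sham on average in both comparisons (medians of 1.09 and 1.03), and 0 of 4 were called. Their part in these results was not tested. Whether the endothelial shift accounts for the differences of Esm1, Dll4, Apln and Tie1 was not tested.

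**Figure D3:**
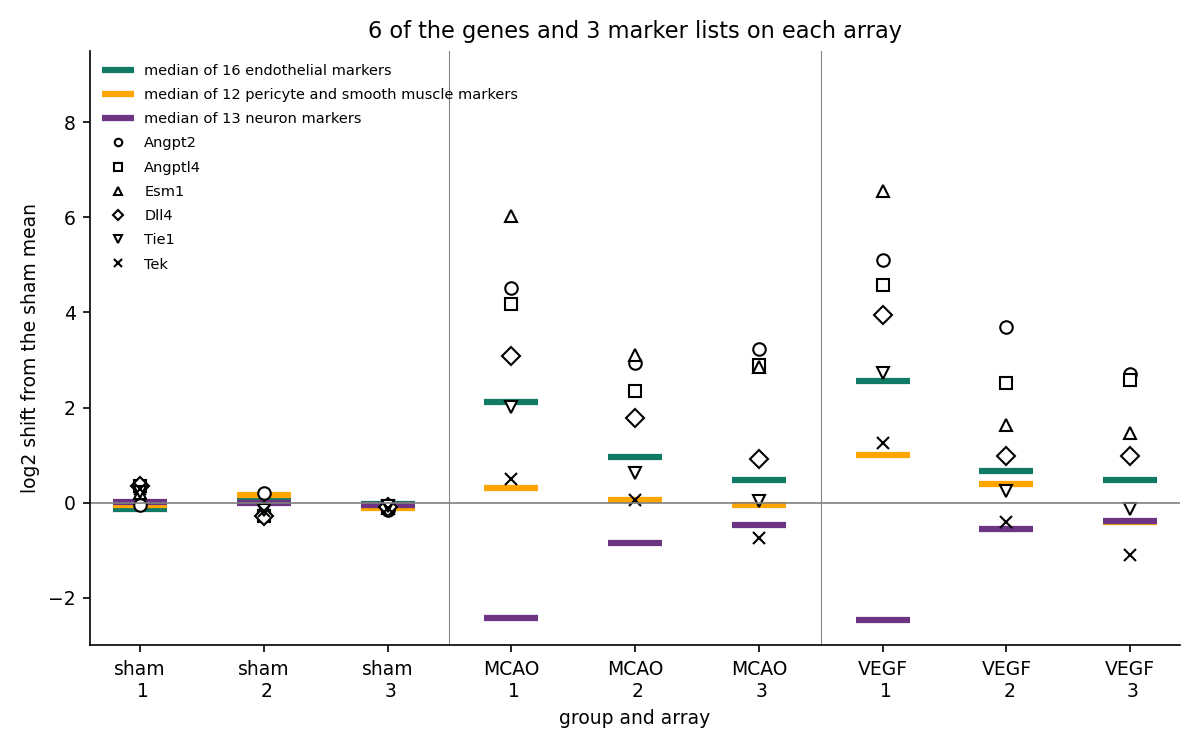
Shift from the sham mean on each array (vertical axis, log2) of Angpt2, Angptl4, Esm1, Dll4, Tie1 and Tek (open symbols and crosses) and the median shift of endothelial, pericyte and smooth muscle, and neuron markers (coloured bars). Esm1 reached 6.04 and 6.55 on MCAO array 1 and VEGF array 1, where the endothelial median was 2.12 and 2.56 and the neuron median -2.43 and -2.46.

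With each array scaled to the mean of its 16 endothelial markers instead, Angpt2 shifted by 3.08, 2.32 and 2.80 in MCAO and by 3.23, 3.47 and 2.49 in VEGF. The array numbered 1 no longer stood out for Angpt2. Angpt2 rose by 2.73 ± 0.41 in MCAO (limma adjusted p = 0.00772) and by 3.06 ± 0.41 in VEGF (limma adjusted p = 0.00386). Angptl4 rose by 2.31 ± 0.42 (limma adjusted p = 0.0232) and by 2.45 ± 0.42 (limma adjusted p = 0.0173) on this scale.

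On the same scale Esm1 still shifted most on MCAO array 1 and VEGF array 1, by 4.60 and 4.67, against 2.47 and 2.43 on the other MCAO arrays and 1.41 and 1.26 on the other VEGF arrays. Its difference of 3.17 ± 0.89 in MCAO and 2.45 ± 0.89 in VEGF did not pass in either comparison. Dll4 came to 1.1 ± 0.50 and 1.19 ± 0.50, and Apln to 0.71 ± 0.42 and 0.85 ± 0.42, all smaller than with the 75th percentile and none passing. Tie1 came to 0.06 ± 0.45 in MCAO and 0.17 ± 0.45 in VEGF. Angpt1 moved further below sham, to -2.30 ± 0.73 and -1.77 ± 0.73, and did not pass (limma adjusted p = 0.185 in both). Tek came to -0.89 ± 0.40 (limma adjusted p = 0.218) and -0.86 ± 0.40 (limma adjusted p = 0.202), which is close to the median of all genes on this scale. The 2 called genes of 9 in each comparison stand beside 1.4% of all genes called (1.15% higher) for MCAO and 1.3% (1.08% higher) for VEGF. The scaling lowered the difference of every gene from sham by the same amount within a comparison. Whether a difference became smaller, larger or turned its sign thus followed from its earlier size and sign. The median of all genes moved to -0.87 and -0.89, so these values are relative to the endothelial markers and not to the whole array. The scaling was chosen after the data were seen.

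Without MCAO array 1 and VEGF array 1, the remaining 7 arrays varied less and more genes passed everywhere. The pair was left out because it stood apart in these same data, and the p-values of this fit do not allow for that choice. Of all genes tested, 22% were called in MCAO against sham (9.61% higher) and 19% for VEGF against sham (8.44% higher). Against that background 4 of the 9 were called in MCAO (Angpt2, Esm1, Dll4 and Angptl4) and 3 in VEGF (Angpt2, Esm1 and Angptl4), all higher. Angpt2 rose by 3.08 ± 0.30 in MCAO (limma adjusted p = 0.00252) and by 3.19 ± 0.30 in VEGF (limma adjusted p = 0.00287). Angptl4 rose by 2.62 ± 0.24 and 2.55 ± 0.24 (limma adjusted p = 0.00206 and 0.00289).

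Esm1 rose by 2.98 ± 0.16 in MCAO (limma adjusted p = 0.000417) and by 1.55 ± 0.16 in VEGF (limma adjusted p = 0.00373) on these 7 arrays. The 2 arrays left out were the highest 2 for this gene, and its standard error with all 9 arrays was 1.35. Both remaining VEGF arrays lay below both remaining MCAO arrays, and the difference of VEGF against MCAO was -1.42 ± 0.18 with an unadjusted p of 0.000137 that did not pass (limma adjusted p = 0.128); in that comparison 0.0319% of all genes were called and 0 of the 9. With all 9 arrays VEGF array 1 was the highest for Esm1, and the groups overlapped. Dll4 rose by 1.35 ± 0.29 in MCAO (limma adjusted p = 0.024) and differed by 0.98 ± 0.29 in VEGF, which did not pass (limma adjusted p = 0.0633). Each ischaemic group holds 2 arrays in this fit.

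The other 5 genes did not pass on these 7 arrays, and Apln, Tie1 and Aplnr lay nearer to sham than with all arrays in both comparisons. Apln differed by 1.22 ± 0.37 in MCAO (limma adjusted p = 0.0625) and by 0.82 ± 0.37 in VEGF. Tie1 differed by 0.33 ± 0.23 and 0.055 ± 0.23, and Aplnr by 0.08 ± 0.19 and 0.11 ± 0.19. Angpt1 differed by -0.97 ± 0.37 and -1.01 ± 0.37. Tek lay further below sham, at -0.34 ± 0.31 in MCAO and -0.76 ± 0.31 in VEGF (limma adjusted p = 0.463 and 0.137).

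**Figure D4:**
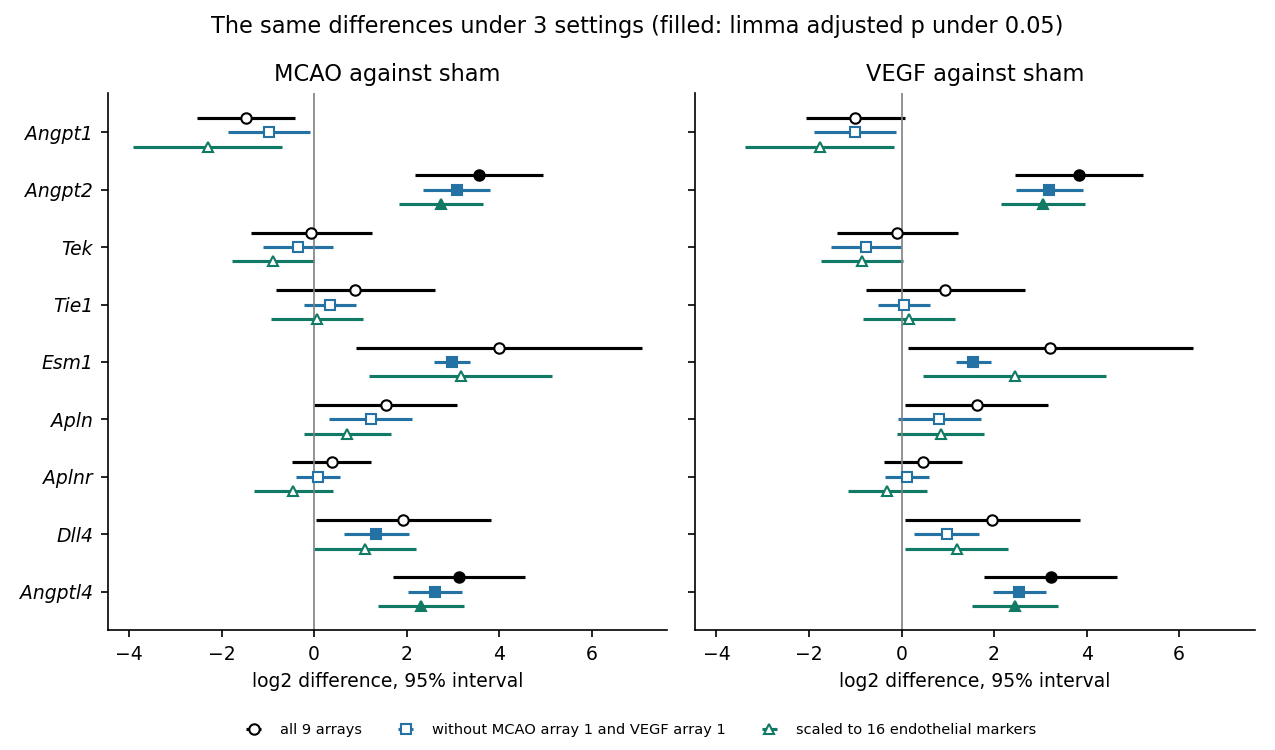
Log2 differences from sham with 95% limma intervals for MCAO (left) and VEGF (right) with all 9 arrays (black circles), without MCAO array 1 and VEGF array 1 (blue squares) and with arrays scaled to 16 endothelial markers (green triangles); filled symbols have adjusted p under 0.05. Angpt2 and Angptl4 are filled under all 3 settings in both comparisons, and Esm1 is filled only without the 2 arrays.

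Of 17 other genes of the angiopoietin and Tie pathway, the MCAO group had 1 called higher than sham and the VEGF group 2, where 2.28% and 2.07% of all genes were called higher. The medians were 0.72 and 0.62 against -0.04 and -0.12 for all genes, and none was called lower. Dok2, an adaptor that binds activated Tie2 and is also abundant in leukocytes, rose by 2.10 ± 0.20 and 2.11 ± 0.20 (limma adjusted p = 0.00168 and 0.00176). Scaled to endothelial markers it differed by 1.28 ± 0.46 and 1.34 ± 0.46 and was not called. Itga5, the integrin alpha 5 subunit, rose by 3.36 ± 0.70 in VEGF (limma adjusted p = 0.0495) and differed by 3.20 ± 0.70 in MCAO (limma adjusted p = 0.0535). Scaled to endothelial markers, Itga5 rose in both, by 2.37 ± 0.42 in MCAO and 2.58 ± 0.42 in VEGF (limma adjusted p = 0.0198 and 0.0125). With the 75th percentile and without the pair of arrays, 6 and 5 of the 17 were called higher, where 9.61% and 8.44% of all genes were. These shares of all genes, with 22% and 19% called in either direction, also stand behind the counts without the pair given for the lists that follow. Neutrophil markers, leukocyte genes, had a summed signal relative to the 75th percentile of 3.05 to 3.71 in sham, 17.4 to 132 in MCAO and 19.8 to 107 in VEGF. The calls among them were S100a8, S100a9 and Cxcr2, while Camp, Mpo and Ngp differed by -0.31, -0.19 and -0.19 in MCAO, and the median shift of all 7 was 0.15 to 0.37 on 4 of the ischaemic arrays and 1.99 and 2.03 on MCAO array 1 and VEGF array 1. Their part in the rise of Dok2 was not tested.

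Of 20 measured tip-cell, endothelial Notch and apelin genes, 0 were called in any of the 3 comparisons, and their medians against sham were 0.55 in MCAO and 0.58 in VEGF. The median on single arrays ran from 0.04 to 1.35 over the ischaemic arrays, with VEGF array 1 highest. Without the pair of arrays, 4 were called higher and 2 lower in MCAO, and 3 higher in VEGF, against the 22% and 19% of all genes called in that fit.

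Of 14 measured lipid genes around Angptl4, 2 were called higher in MCAO and 1 in VEGF, and none lower. Fabp4, a fatty acid binding protein of endothelium, fat cells and macrophages, rose by 4.14 ± 0.73 and 4.39 ± 0.73 (limma adjusted p = 0.0237 and 0.0202). Plin2, the coat protein of lipid droplets, rose by 3.94 ± 0.80 in MCAO (limma adjusted p = 0.0401) and differed by 3.68 ± 0.80 in VEGF (limma adjusted p = 0.0573). The list's medians were 0.54 and 0.50, and without the pair of arrays 4 were called higher and 1 lower in each comparison. Scaled to endothelial markers, Fabp4 (limma adjusted p = 0.00364 and 0.00231) and Plin2 (limma adjusted p = 0.0089 and 0.0138) were called higher in both comparisons. On that scale 1 of the 14 was called lower in MCAO and 0 in VEGF, where 1.4% and 1.3% of all genes were called.

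Of 12 hypoxia-induced genes, 2 were called higher in each comparison with sham and none lower, with medians of 0.38 and 0.43. Adm, the gene of the vasodilator peptide adrenomedullin, rose by 2.67 ± 0.29 and 2.69 ± 0.29 (limma adjusted p = 0.00297 and 0.0033). Hk2, a hexokinase of glycolysis, rose by 2.34 ± 0.33 and 2.41 ± 0.33 (limma adjusted p = 0.0106 in both). Scaled to endothelial markers, 0 of the 12 were called in either comparison. Adm then differed by 1.84 ± 0.45 and 1.91 ± 0.45 (limma adjusted p = 0.096 and 0.0791), and Hk2 by 1.51 ± 0.45 and 1.64 ± 0.45 (limma adjusted p = 0.167 and 0.12). Slc2a1, the glucose transporter of the blood-brain barrier, is both 1 of these 12 genes and 1 of the 16 markers used for that scaling. With the 75th percentile, 5 and 3 were called higher without the pair of arrays.

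The 16 endothelial markers had medians of 1.26 in both comparisons with sham, yet those that passed were lower. On average 11 lay above sham and 5 below it in MCAO, and 12 above and 4 below in VEGF. Slco1a4, a transporter of the blood-brain barrier, fell by 1.59 ± 0.25 in MCAO (limma adjusted p = 0.015) and by 2.23 ± 0.25 in VEGF (limma adjusted p = 0.00388). Itm2a, a membrane protein of brain endothelium, fell by 1.96 ± 0.36 in MCAO (limma adjusted p = 0.0262). None was called higher, and without the pair of arrays 7 and 6 of 16 were called higher and 3 and 4 lower.

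Of the 17588 other genes with a symbol, those whose level over the 9 arrays was most like Angpt2 were Serp1 (Pearson r = 0.996), Psmb8 (0.996) and Adgre1 (0.995). Those most like Angptl4 were Themis2 (0.998), Nfkb2 (0.996) and Ifitm2 (0.996). These values describe 9 points in 3 clusters, sham, MCAO array 1 with VEGF array 1, and the other 4 ischaemic arrays, so any gene with that order of clusters scores high.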

How the data were processed

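Expression was measured on 9 Agilent 1-colour arrays, 3 per group, with 200 ng of Cy3-labelled RNA each, per the labels. The deposited processed intensity came from Agilent Feature Extraction 10.7.1.1, per the submitters' processing notes. Per the file headers it is background-subtracted and divided by a deposited spatial detrending ratio, except on MCAO array 1, which was scanned on another day. It is not scaled between arrays. The authors also deposited a value table of unstated scale, read as log2 because each column tracks the log2 intensity of its array (r from 0.998 to 1.00) with a median of 6.97; its normalization method is unknown.

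Here, log2 intensity was set relative to the 75th percentile of the non-control probes on its array, and spots were averaged. A probe was kept if all 3 arrays of some group had it well above background (43921 of 55681). The brightest probe stood for a gene, giving 30837 items, called genes. Symbols came from RefSeq accessions (assembly GRCm38.p6) for 26582 probes. One limma 3.58.1 fit in R 4.3.3 over all 9 arrays gave moderated two-sided tests, adjusted by Benjamini-Hochberg over all genes at 0.05. The fit was tested on simulated data. The number of arrays limits the precision.

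The text names all 9 genes, the called genes of each list and the 3 genes most like each called member; members, lists and alternatives were chosen with earlier results of these data known. Marker lists for pericytes, astrocytes, oligodendrocytes, microglia, neutrophils, lymphocytes, red blood cells, fibroblasts and choroid plexus are given as counts and medians. Same-numbered MCAO and VEGF arrays deviated together (correlations of 0.59, 0.22 and 0.56 across genes), and the study ran 3 experiments, so the numbers were taken to pair these 2 groups. The main fit left this pairing out, and fits with a replicate block are given below. Arrays 2 and 3 also correlated across numbers (0.39 and 0.23), so the data do not separate those 2 numbers. With sham they correlated at -0.11 to 0.15 and were taken as unpaired.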

Additional observations from a re-analysis of the deposited data

How the results depend on the processing

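Angpt2 and Angptl4 were called in both comparisons with sham under quantile normalization, no scaling, the authors' table, normexp, recomputed signals, the 2 other filters, both other probe rules, age as covariate, array weights, the replicate block, endothelial scaling, only 2 groups, and without the pair of arrays. Leaving out 1 array gave 0 to 3 of the 9 genes in MCAO against sham, 0 to 2 in VEGF against sham and 0 in VEGF against MCAO. The counts over all genes (868, 748 and 2) then ran from 191 to 2534, 157 to 3196 and 1 to 5. An arm with 2 arrays shares the spread of the others in these fits.

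In MCAO against sham, array weights called 6 of the 9 (Angpt2, Esm1, Apln, Dll4 and Angptl4 higher, Angpt1 lower), where 12385 of 30837 genes were called. The fit of only 2 groups called 3 (Angpt2, Esm1 and Angptl4), where 1778 of 30751 genes were called. The fit without the pair called 4, where 6912 of 31357 genes were called. All genes called came to 1373 with no scaling, 558 with normexp, 1594 with age and 432 with endothelial scaling. In VEGF against sham they came to 440 with normexp, 7094 with array weights, 5969 without the pair, 401 with endothelial scaling and 1125 with only 2 groups. In VEGF against MCAO they came to 4 with quantile normalization, no scaling or endothelial scaling, 0 with normexp, recomputed signals or all 9 arrays above background, 27 with array weights, 10 without the pair and 1 with only 2 groups. With no scaling, 96.9% of MCAO calls were higher, against 81.0% as reported, and the median of all genes lay at -0.32 in VEGF against sham and -0.26 in VEGF against MCAO. The cause of these moves was not tested.

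With the replicate block over all 9 arrays, 2, 2 and 0 of the 9 genes were called, as without it, and 1229, 946 and 2 of all genes. With the block over only the MCAO and VEGF arrays, added after seeing the data, 0 of 9 and 0 of all genes were called. The block changed no call of these 9 genes.

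Signs turned only for differences that did not pass. In MCAO against sham, Tek came to 0.075 with age and to -0.34 to 0.28 without 1 array, and Aplnr to -0.45 with endothelial scaling. In VEGF against sham, Tek ran from -0.76 to 0.42 without 1 array, and Aplnr came to -0.31 with endothelial scaling. In VEGF against MCAO the values without the pair were -0.031 for Angpt1, -0.071 for Angptl4, -0.40 for Apln, -0.37 for Dll4 and -0.28 for Tie1. With age they were -0.0064 for Angpt2, -0.16 for Angptl4, -0.12 for Apln, -0.092 for Aplnr, -0.31 for Dll4 and -0.29 for Tie1. With no scaling they were -0.15 for Angptl4, -0.16 for Apln, -0.15 for Aplnr, -0.20 for Dll4 and -0.18 for Tie1. Array weights gave -0.31 for Apln, -0.42 for Dll4 and -0.21 for Tie1. Quantile normalization gave -0.021 for Angptl4 and 0.066 for Tek, the authors' table -0.023 and 0.065, normexp 0.040 for Tek and endothelial scaling 0.027 for Tek. Without 1 array the ranges were -0.020 to 0.94 for Angpt1, -0.37 to 0.84 for Angpt2, -0.59 to 0.60 for Angptl4, -0.72 to 0.61 for Apln, -0.26 to 0.38 for Aplnr, -0.95 to 0.62 for Dll4, -2.44 to 0.24 for Esm1, -0.70 to 0.48 for Tek and -0.84 to 0.61 for Tie1.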

Other observations

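Choroid plexus markers varied widely between mice and in no comparison did any of the 7 pass. Their median shift was 0.55, 0.42 and -1.06 in sham, 2.09, -0.82 and -0.17 in MCAO, and -3.83, 1.36 and -4.15 in VEGF.

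Of 7 neutrophil markers measured, 3 were called higher in each comparison with sham (Cxcr2, S100a8 and S100a9), and no sham array had Cxcr2 well above background. S100a8, a subunit of calprotectin, rose by 6.19 ± 0.97 in MCAO (limma adjusted p = 0.0156) and by 6.02 ± 0.97 in VEGF (limma adjusted p = 0.0185).

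Of 8 astrocyte markers, 0 were called in MCAO and 1 higher in VEGF, with medians of -0.05 and 0.23. Gfap, the filament gene of reactive astrocytes, rose by 2.06 ± 0.40 in VEGF (limma adjusted p = 0.0366) and differed by 1.84 ± 0.40 in MCAO (limma adjusted p = 0.0508). Of 7 microglia and macrophage markers 1 was called, lower, in each comparison with sham, and the medians were 0.23 and 0.53. This was P2ry12, the purinergic receptor of resting microglia, which fell by 2.67 ± 0.20 in MCAO and by 2.31 ± 0.20 in VEGF (limma adjusted p = 0.00061 and 0.00122).

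Of 8 lymphocyte markers 2 were called higher in each comparison with sham (medians of 0.44 and 0.40). Cd3d, a subunit of the T cell receptor complex, rose by 2.26 ± 0.29 and 2.03 ± 0.29 (limma adjusted p = 0.00679 and 0.0111). Gzmb, a protease of cytotoxic cells, rose by 2.11 ± 0.33 and 1.57 ± 0.33 (limma adjusted p = 0.0145 and 0.0476). Gfap, Cd3d and Gzmb were not called with arrays scaled to endothelial markers, and P2ry12 was. That scaling lowers every difference from sham by the same amount within a comparison. It thus moves a lower gene such as P2ry12 further from sham, and this contrast says nothing particular about these markers.

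Of 8 oligodendrocyte markers none was called (limma), and their medians were 0.93 in MCAO and 0.61 in VEGF. The same held for 8 fibroblast and meningeal markers, with a median of 0.65 in VEGF and -0.0036 in MCAO.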
